A study of Mus musculus with 12 samples.

Results

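The upper lip territory of the thalamus in treated newborn mice was compared with the whisker territory of control mice. The comparison takes all 4 libraries labelled embWPC ALBSF and all 4 labelled Ctrl PMBSF, 8 of the 12 libraries in the series, and asks how far the treated lip territory still differed from the whisker territory. ALBSF and PMBSF stand for the antero-lateral and postero-medial barrel subfields, the names of the matching cortical territories. Here they denote the parts of the thalamic ventroposterior medial nucleus (VPM) that receive upper lip and whisker pad input. Every library was bulk RNA of microdissected tissue at postnatal day 0, pooled from 5 brains cut into 300 µm sections. Ctrl pups were controls. The labels do not spell out embWPC and give no strain, so that name is kept. Because the 2 groups differ in both territory and treatment, the effects of these cannot be told apart within this contrast. The remaining 4 libraries, Ctrl ALBSF, are the untreated lip territory and serve as the reference level. Replicates are pools, so each p-value measures the spread between pools.

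The VPM relays touch from the face to the primary somatosensory cortex. Its relay neurons are glutamatergic, and their axons carry the arrangement of the whiskers and the lip into the cortex, where it is rebuilt as the barrel map. Adhesion receptors, guidance receptors and transcription factors expressed in graded or patchy patterns are known to help thalamic neurons find and hold their targets.

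Library totals ran from 31712820 to 33702453 counts in embWPC ALBSF and from 31921767 to 34512840 in Ctrl PMBSF. Levels are given as CPM, counts scaled to a common library total, and differences as log2 values of embWPC ALBSF minus Ctrl PMBSF. Their standard error (SE) is the absolute log2 difference divided by the square root of the edgeR test's F statistic. The 95% intervals were built from this SE. Thalamic relay neuron genes were abundant in both groups, with a summed level over 34 genes of 3925 to 4481 CPM in embWPC ALBSF and 3828 to 4257 CPM in Ctrl PMBSF. Slc17a6, the vesicular glutamate transporter of relay neurons, lay between 366 and 430 CPM in embWPC ALBSF and between 349 and 404 in Ctrl PMBSF. Its difference was 0.03 with a 95% interval of -0.14 to 0.20. Lef1, a transcription factor of thalamic neurons, differed by 0.15 with an interval of -0.04 to 0.33. Gbx2, a thalamic transcription factor, had 14.9 CPM in embWPC ALBSF pool 2 and 1.86 to 3.31 CPM in the other treated pools, so these libraries were not equal in it. Markers of cortical and hippocampal neurons summed to 94.9 to 117 CPM in embWPC ALBSF and 92.6 to 127 in Ctrl PMBSF. Xist, the RNA expressed from the inactive X chromosome, was at 0.06 and 0.11 CPM in Ctrl PMBSF pools 2 and 3. Pools 1 and 4 of that group had 21.6 and 14.98 CPM, and the treated pools had 7.41 to 36.6 CPM. In Ctrl ALBSF pools 1 to 4, Xist had 22.2, 68.7, 0.07 and 15.57 CPM. Ddx3y, a gene of the Y chromosome, was at 0 CPM in Ctrl ALBSF pool 2. The pools thus differed in their make-up of females and males, in the reference group as well. Results without Ctrl PMBSF pools 2 and 3 are given where they differ. Tenm1, Hs6st2, Pcdh11x, Maoa and Efnb1, named below, lie on the X chromosome, and the fit had no term for sex.

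Between the treated lip territory and the control whisker territory, 1 of 17501 genes tested passed an adjusted p of 0.05, which is 0.00571% of them. That gene was Adgrl2, and it was higher in the treated lip territory. At an unadjusted p under 0.05 there were 1646 genes (9.41%), of which 726 (4.15%) were higher and 920 (5.26%) lower in embWPC ALBSF. The 8 libraries separated without overlap by group for 827 genes (4.73%), 411 of them higher (2.35%) and 416 lower (2.38%). The median difference over all genes was -0.02, and 46.6% of genes had a value above 0. The median 95% interval, which carries no adjustment, reached 0.31 to either side of its estimate. For a typical gene, a call after adjustment needs a larger difference than this, so genes that were not called may still differ. With DESeq2, 74 of 17494 genes (0.423%) passed an adjusted p of 0.05, 34 higher and 40 lower, whereas limma-voom called 1. DESeq2's calls included Adgrl2 and, among genes described below, Rorb, Thra, Tenm1, Cdh6, Pcdh11x, Cacnb2 and Syt9 on the higher side and Ebf1, Bambi, Angpt2, Tnnt1, Kcnip4 and Penk on the lower side. In the main edgeR fit, which uses the count filter, none of these except Adgrl2 passed the threshold. The edgeR calls below are from this fit unless another setting is named. With no count filter, edgeR called 33 genes. They included Adgrl2, Rorb, Thra, Tenm1, Cdh6, Pcdh11x, Ebf1, Bambi, Angpt2 and Kcnip4, but not Cacnb2, Syt9, Tnnt1 or Penk. Clstn1, Nell2, Islr, Ogn, Aldh1a1 and Pnlip were among them as well. In the main edgeR fit, the control territories differed from each other in 291 genes (1.66%), and the treated and control lip territories in 13 (0.0743%). These counts were not stable: DESeq2 gave 527 and 181, and leaving out single libraries gave 128 to 294 and 1 to 58, so no comparison of the 3 counts is made. All 3 contrasts share libraries pairwise, so their values are set side by side below and not correlated.

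**Figure D1:**
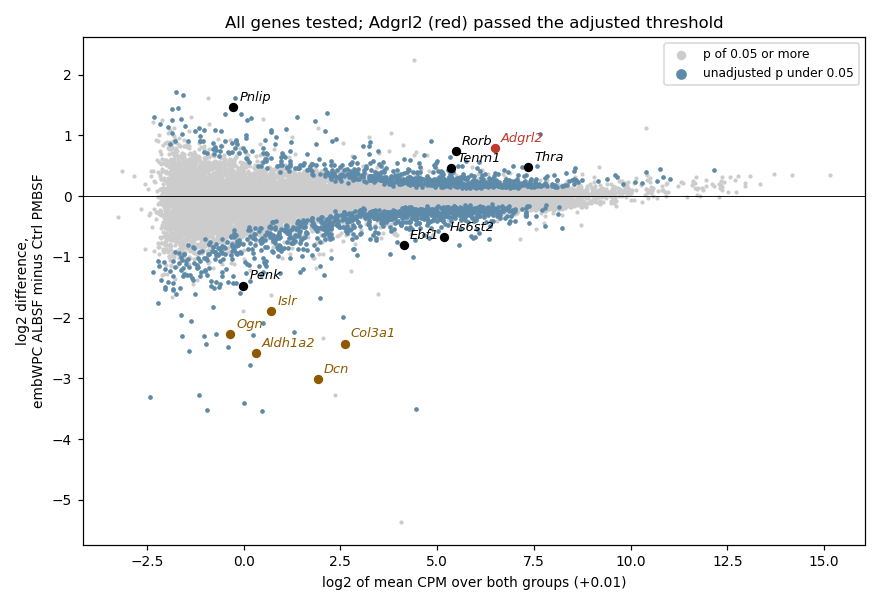
Each point is 1 of 17501 genes, with its mean level over both groups on the x axis (log2 CPM) and its log2 difference of embWPC ALBSF minus Ctrl PMBSF on the y axis. Adgrl2 in red is the 1 gene past the adjusted threshold, and the meningeal fibroblast genes Dcn, Col3a1, Ogn, Islr and Aldh1a2 in brown lie among the lowest differences.

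Adgrl2 encodes latrophilin 2, an adhesion G protein-coupled receptor that binds teneurins and FLRT proteins across the gap between cells. The gene (ENSMUSG00000028184) spans chr3:148518957-148696229 on the minus strand of GRCm39. Adgrl2 had 118, 117, 103 and 117 CPM in embWPC ALBSF pools 1 to 4, and 63.7, 67.4, 64.1 and 65.8 CPM in Ctrl PMBSF pools 1 to 4. The groups did not overlap, and the lowest treated pool stood well above the highest whisker pool. The means were 113 ± 7.15 and 65.2 ± 1.73 CPM (SD, n = 4 each), a 1.74-fold difference. The log2 difference was 0.80 ± 0.07 (SE), with a 95% interval of 0.66 to 0.94 and an adjusted p of 4.63e-05 by edgeR's quasi-likelihood test. In Ctrl ALBSF, Adgrl2 had 175, 160, 173 and 179 CPM. The treated lip territory therefore lay between the control territories, with no overlap on either side. The contrast of Ctrl PMBSF minus Ctrl ALBSF gave -1.39 ± 0.07 for Adgrl2, and embWPC ALBSF minus Ctrl ALBSF gave -0.60 ± 0.07, with edgeR adjusted p-values of 1.43e-08 and 0.00241.

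Because Adgrl2 was the called gene, the 250 bases before its outermost annotated start (GENCODE) are shown, read from GRCm39 at chr3:148696230-148696479 on the minus strand, 5′ to 3′.
Adgrl2: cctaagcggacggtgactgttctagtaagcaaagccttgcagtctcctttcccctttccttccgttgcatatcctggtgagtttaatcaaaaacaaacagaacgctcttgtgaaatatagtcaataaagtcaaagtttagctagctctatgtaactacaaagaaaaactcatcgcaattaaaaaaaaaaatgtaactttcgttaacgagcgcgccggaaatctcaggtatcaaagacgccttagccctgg
The window is 40.8% G and C and holds 11 CpG sites. Capitals would mark AGGTCA on either strand, the half-site bound by nuclear receptors such as Rorb and Nr2f2, which are described below. These letters were absent from this window and from the 300 bases around the canonical start at 148695675. They occur in 2360 of 17431 promoters of tested genes (13.5%, from 250 bases before to 50 after the canonical start). An antisense gene, Gm43573, overlaps the first exons of Adgrl2, and the strand setting of the counting is not given in the sources used here. Gm43573 itself had 2 to 10 counts per library over all 12 libraries, against 2096 to 5410 for Adgrl2.

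The list of latrophilins, teneurins and FLRT ligands has 11 members, all tested. Adgrl2 was the 1 member called by edgeR, and DESeq2 called Adgrl2 and Tenm1. At an unadjusted p under 0.05, 4 members had higher and 4 lower values, and the median difference was -0.16. Over all genes tested, 4.15% were higher and 5.26% lower at this threshold. Of the receptors, Adgrl1 differed by 0.28 ± 0.12, Adgrl3 by 0.04 ± 0.13 and Adgrl4 by 0.46 ± 0.21, with edgeR adjusted p-values of 0.515 to 0.96. The sign of Adgrl3 depended on single libraries. Per kilobase of exon, Adgrl1 was the most abundant receptor at 16.7 CPM in embWPC ALBSF and 13.8 in Ctrl PMBSF, and Adgrl2 followed at 5.74 and 3.30 CPM. Adgrl3 stood at 2.07 and 2.02 and Adgrl4 at 1.5 and 1.09 CPM per kilobase.

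The teneurins, transmembrane ligands of the latrophilins, had values in opposite directions. Tenm1 had 47.5, 45.5, 49.9 and 47.3 CPM in embWPC ALBSF and 28.6, 36.8, 36.9 and 35.1 CPM in Ctrl PMBSF. All treated pools were above all whisker pools, and the difference of 0.47 ± 0.10 had an edgeR adjusted p of 0.238. Tenm3 had 27.7, 29.7, 37.6 and 25.6 CPM in embWPC ALBSF and 37.7, 38.0, 43.0 and 36.9 CPM in Ctrl PMBSF. Treated pool 3 reached into the range of the whisker pools, and the difference was -0.37 ± 0.10 with an adjusted p of 0.322. Tenm2 and Tenm4 had differences of -0.68 ± 0.28 and -0.42 ± 0.18 with overlapping groups. Flrt3, a leucine-rich repeat ligand of the same receptors, had a difference of -0.42 ± 0.13, and Flrt1 and Flrt2 had -0.23 and -0.16. Ctrl ALBSF averaged 70.2 CPM for Tenm1 and 22.8 for Tenm3, so for both genes the treated lip mean lay between the 2 control means.

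**Figure D2:**
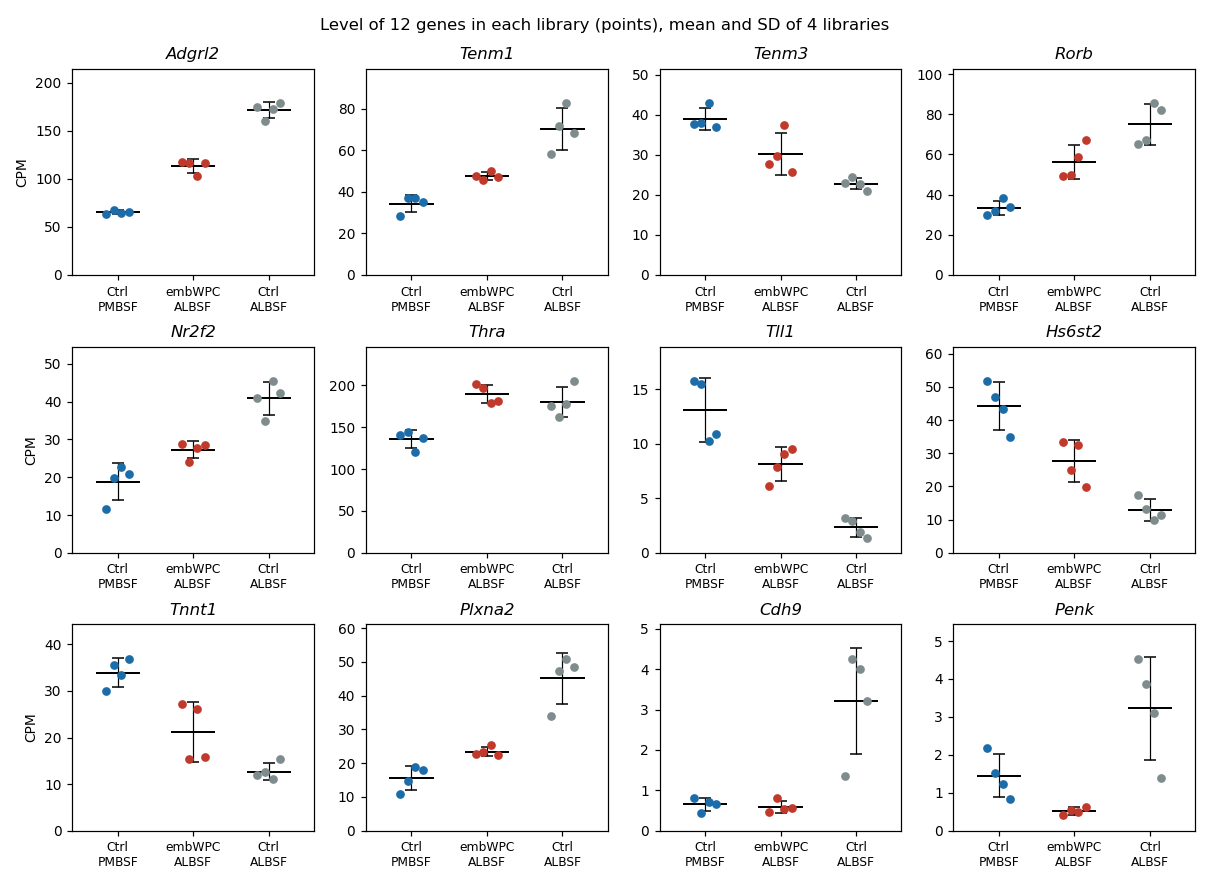
CPM of 12 genes (y axis, linear, from 0) in each of the 12 libraries (points) by group, with the mean (line) and SD (bar) of 4 libraries. For Adgrl2 the groups are ordered Ctrl PMBSF, embWPC ALBSF, Ctrl ALBSF without overlap, while Cdh9 in embWPC ALBSF lies within the range of Ctrl PMBSF and Penk lies below both control groups.

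Among transcription factors, Rorb had the second smallest p of all genes and did not pass the threshold. Rorb (chr19:18907969-19088585, minus strand) is a nuclear receptor known for its expression in sensory relay pathways. Rorb had 49.2, 49.5, 58.6 and 67.0 CPM in embWPC ALBSF and 29.7, 31.6, 38.1 and 34.0 CPM in Ctrl PMBSF. The groups did not overlap, with a difference of 0.75 ± 0.12 and an edgeR adjusted p of 0.105. Without Ctrl ALBSF pool 1, which enters the fit through the shared spread, Rorb was called along with Adgrl2. Its relative Rora had 587 to 750 CPM in embWPC ALBSF and 617 to 707 in Ctrl PMBSF, a difference of 0.03 ± 0.09 whose sign changed without treated pool 1. Nr2f2, a COUP-family nuclear receptor, had 28.9, 23.9, 27.8 and 28.6 CPM in embWPC ALBSF and 11.6, 19.8, 22.8 and 20.8 CPM in Ctrl PMBSF. These groups stood close but apart, at 0.54 ± 0.16 with an adjusted p of 0.353. Its relative Nr2f1 had a difference of -0.20 ± 0.10. Thra, the thyroid hormone receptor alpha, had 201, 197, 179 and 182 CPM in embWPC ALBSF and 141, 145, 120 and 137 CPM in Ctrl PMBSF. The treated pools of Thra were all above the whisker pools, at 0.48 ± 0.08 with an adjusted p of 0.132, and their mean of 190 CPM was near the 180 CPM of Ctrl ALBSF. Ebf1, a helix-loop-helix transcription factor, was on the other side, with 12.1, 14.4, 14.3 and 10.6 CPM in embWPC ALBSF and 22.4, 21.7, 24.7 and 21.0 CPM in Ctrl PMBSF. The groups did not overlap, at -0.81 ± 0.14, and the adjusted p was 0.132. Thra, Ebf1, Bambi and Angpt2 are described because of their small p, chosen after their values were seen. Bambi, a decoy receptor of the TGF-beta family, and Angpt2, a ligand of the endothelial Tie2 receptor, had differences of -0.55 ± 0.10 and -0.64 ± 0.13 without overlap.

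The 34 thalamic relay neuron genes held no gene called by edgeR, while DESeq2 called 2, Rorb and Cdh6. At an unadjusted p under 0.05, 5 had higher and 5 lower values, and the median difference was -0.01. Their libraries did not overlap for 3 genes in the higher and 2 in the lower direction. Over all genes these shares were 4.15% and 5.26% past the unadjusted threshold, and 2.35% and 2.38% without overlap. Besides Rorb and Nr2f2, Cdh6 was higher without overlap, at 177, 148, 179 and 175 CPM in embWPC ALBSF and 95.6, 132, 122 and 135 CPM in Ctrl PMBSF. Cdh6 encodes a type II cadherin, and its difference of 0.49 ± 0.10 had an edgeR adjusted p of 0.238. Of 23 tested markers of first-order and of higher-order nuclei of the thalamus, none had a higher and 3 had a lower value at an unadjusted p under 0.05, with a median of -0.08. Tnnt1, which encodes slow skeletal troponin T and is also known as a thalamic marker, had 27.2, 15.3, 26.2 and 15.8 CPM in embWPC ALBSF and 29.9, 35.6, 33.3 and 36.9 CPM in Ctrl PMBSF. Treated pools 2 and 4 were the low ones and pools 1 and 3 lay just under the whisker pools, which gave -0.69 ± 0.18 (adjusted p 0.298). Hs6st2, a heparan sulfate sulfotransferase, had 33.4, 24.9, 32.4 and 19.9 CPM in embWPC ALBSF and 51.8, 46.9, 43.3 and 34.9 CPM in Ctrl PMBSF. The highest treated pool was just below the lowest whisker pool, and the difference was -0.68 ± 0.19 with an adjusted p of 0.345. Ctrl ALBSF averaged 12.7 CPM for Tnnt1 and 12.9 for Hs6st2, below both other groups.

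A set of 11 genes was taken up because earlier work on these files called them between the treated and control lip territories. That contrast shares the treated libraries with this one, so the values against the whisker territory are a description. Adgrl2 is one of them. Tll1, a tolloid-like metalloprotease, had 6.11, 7.85, 9.10 and 9.51 CPM in embWPC ALBSF and 15.8, 15.5, 10.2 and 10.9 CPM in Ctrl PMBSF. Every treated pool was below every whisker pool and above the Ctrl ALBSF mean of 2.35 CPM, and the difference from Ctrl PMBSF was -0.68 ± 0.23. Plxna2, a semaphorin co-receptor, had 22.7, 23.4, 25.3 and 22.4 CPM in embWPC ALBSF and 10.8, 14.8, 18.9 and 17.9 CPM in Ctrl PMBSF. The groups did not overlap, at 0.59 ± 0.16 with an edgeR adjusted p of 0.302, and Ctrl ALBSF averaged 45.2 CPM. The transcription factor Pou2f2 and the doublecortin-domain gene Dcdc2a had differences of -0.30 ± 0.12 and -0.36 ± 0.09, also without overlap.

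For 5 of the 11 genes the 95% interval of the difference from the whisker territory included 0. Cdh9, a type II cadherin, had 0.47, 0.81, 0.53 and 0.55 CPM in embWPC ALBSF and 0.81, 0.43, 0.70 and 0.66 CPM in Ctrl PMBSF, against a Ctrl ALBSF mean of 3.21 CPM. The treated and whisker pools were mixed, and the interval of -0.91 to 0.62 was wide at this low level. Pcdh10, a delta protocadherin, had 21.8 to 24.8 CPM in embWPC ALBSF and 18.0 to 24.3 in Ctrl PMBSF, with an interval of -0.09 to 0.43. Lmo4, a LIM-domain transcriptional cofactor, had 16.5 to 21.2 CPM in embWPC ALBSF and 13.8 to 21.4 in Ctrl PMBSF, with an interval of -0.23 to 0.42. Nxph1, a neurexin ligand, and Cdh22, a cadherin, had intervals of -0.17 to 0.68 and -0.46 to 0.20. An interval that includes 0 does not show equal levels. Penk, which encodes proenkephalin, had 0.40, 0.55, 0.50 and 0.63 CPM in embWPC ALBSF and 2.19, 1.53, 1.23 and 0.85 CPM in Ctrl PMBSF. Its treated pools were below all whisker pools, and the Ctrl ALBSF mean of 3.23 CPM was higher still, so the treated mean did not lie between the control means. The difference of -1.47 ± 0.37 had an edgeR adjusted p of 0.282.

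Several genes called between the control territories in the same edgeR fit had treated means between the 2 control means. Both control groups enter this choice of genes, so an intermediate mean is a description. Cdh9 and Cdh22 were called there too, and their treated means were below both control means. Inhba, the inhibin beta A subunit, had 5.03, 4.52, 3.31 and 1.89 CPM in embWPC ALBSF and 1.78, 0.55, 2.41 and 1.16 CPM in Ctrl PMBSF. The groups overlapped through treated pool 4, at 1.3 ± 0.43, and Ctrl ALBSF averaged 9.31 CPM. Cntn3, a contactin, had a difference of 0.88 ± 0.33, and Pcdh11x, a protocadherin, 0.59 ± 0.13. The Wnt inhibitor Wif1 and the noncanonical Notch ligand Dlk1 had differences of -1.21 ± 0.32 and -0.95 ± 0.32. None of these passed edgeR's adjusted threshold, and DESeq2 called Pcdh11x.

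**Figure D3:**
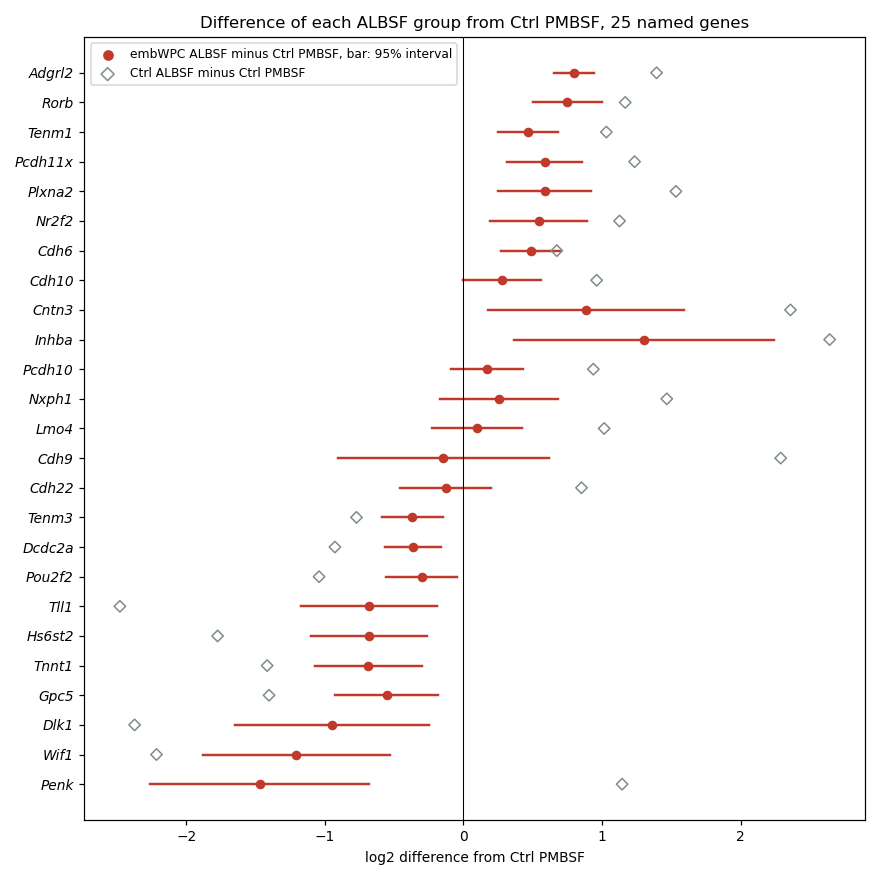
Log2 difference from Ctrl PMBSF for 25 named genes, with red points and 95% intervals for embWPC ALBSF and open diamonds for Ctrl ALBSF. Both sets of values use the same Ctrl PMBSF libraries. Adgrl2 lies at 0.80 with its interval clear of 0, and Penk is the gene in the plot whose red point and diamond are on opposite sides with an interval clear of 0.

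By edgeR, these further adhesion and guidance families held no called gene, while DESeq2 called 1 cadherin (Cdh6), 1 delta protocadherin (Pcdh11x) and 1 guidance gene (Nell2), all higher. The shares over all genes at an unadjusted p under 0.05 were 4.15% higher and 5.26% lower, beside which the counts below stand. Of 17 cadherins tested, 3 had higher and 1 lower values at this threshold (median -0.09). Of 12 delta protocadherins, 1 was higher and 10 had values above 0 (median 0.14). Of 30 semaphorins, plexins and neuropilins, 4 were higher and 1 lower (median 0.12). Sema3b, a secreted semaphorin, had the lower value at -0.79 ± 0.30. For 22 ephrins and Eph receptors, 1 gene passed the unadjusted threshold, Epha5 at -0.40 ± 0.17 (median 0.03). Netrin, Slit, Robo and other guidance genes had 2 higher and 2 lower of 29 (median 0.01), and contactins, IgLON and sidekick genes 2 higher of 28 (median 0.01). Among 44 synaptic organisers, 4 were higher and 2 lower (median 0.06). Clstn1, calsyntenin 1, had 390 to 440 CPM in embWPC ALBSF and 231 to 358 in Ctrl PMBSF, without overlap, at 0.42 ± 0.11. Cbln4, a secreted synaptic organiser of the cerebellin family, had 8.76 to 14.2 CPM in embWPC ALBSF and 15.4 to 27.4 in Ctrl PMBSF, at -0.76 ± 0.23.

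By edgeR, genes of transmission and excitability held no called member, while DESeq2 called Syt9 and Cacnb2 as higher and Kcnip4 and Penk as lower. Of 40 presynaptic release genes, 4 had higher and 2 lower values at an unadjusted p under 0.05 (median 0.07). The shares over all genes were 4.15% and 5.26%. Syt9, a synaptotagmin, differed by 0.27 ± 0.07 without overlap. Among 24 glutamate receptors, 2 were higher and 1 lower (median 0.11). Gria2, the AMPA receptor subunit that limits calcium entry, had 387 to 451 CPM in embWPC ALBSF and 307 to 386 in Ctrl PMBSF, which just separates the groups at 0.28 ± 0.08. Of 50 potassium channel genes, 2 were higher and 3 lower (median 0.06), and of 32 HCN, calcium and sodium channel genes 3 were higher (median 0.02). Cacnb2, a calcium channel beta subunit, was at 8.92, 12.2, 10.2 and 10.4 CPM in embWPC ALBSF and at 7.27, 7.21, 7.42 and 7.76 CPM in Ctrl PMBSF. The groups did not overlap, at 0.49 ± 0.11 with an edgeR adjusted p of 0.24. Kcnip4, an auxiliary subunit of Kv4 potassium channels, was on the other side at -0.58 ± 0.12 without overlap. Of 46 monoamine and neuropeptide genes, 32 had values below 0, with 2 higher and 9 lower at an unadjusted p under 0.05 and a median of -0.30. Many of these are low in level, for example Drd1, a dopamine receptor, at means of 1.62 and 3.87 CPM. In contrast, Maoa, which degrades monoamines, had 39.2 to 42.6 CPM in embWPC ALBSF and 32.2 to 37.0 in Ctrl PMBSF, at 0.26 ± 0.07.

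Meningeal fibroblast markers had lower values in the treated libraries. Of 23 tested, 20 were below 0, 14 of these at an unadjusted p under 0.05, and 8 did not overlap between groups. Among all genes, 5.26% were lower at that threshold and 2.38% lower without overlap. The list median was -1.68 against -0.02 over all genes. None passed edgeR's adjusted threshold, while DESeq2 called 9. Over the 23 tested genes the mean log2 CPM was 0.91, 0.98, 0.68 and 0.68 in embWPC ALBSF pools 1 to 4 and 1.33, 2.99, 2.15 and 2.02 in Ctrl PMBSF. No treated pool reached the whisker pools, and Ctrl PMBSF pool 2 was the highest of the 12 libraries. The Ctrl ALBSF pools had 1.25, 1.59, 1.59 and 1.44, so the treated pools also lay below the control lip territory. The summed level over all 24 listed genes was 6297 to 12021 CPM in embWPC ALBSF and 6232 to 9320 in Ctrl PMBSF. Most of it was Nnat, which neurons also express. Without Nnat the sums were 78.8 to 120 and 116 to 223 CPM, and Dpep1 was at 0 in all 8 libraries. In bulk tissue, fewer cells of a type and less RNA per cell cannot be told apart. Col3a1, a fibrillar collagen, had 1.78, 2.36, 1.89 and 1.6 CPM in embWPC ALBSF and 2.86, 23.7, 8.54 and 5.90 in Ctrl PMBSF. The values of Col3a1 did not overlap, although pool 1 of Ctrl PMBSF was close to the treated pools. Its difference was -2.43 ± 0.55 with an edgeR adjusted p of 0.282. Ogn, a small proteoglycan, stood at -2.27 ± 0.41 (adjusted p 0.132), and Dcn, decorin, -3.01 ± 0.67. Without Ctrl PMBSF pool 2 the list median was -1.0, and without pools 2 and 3 it was -0.89. With Ctrl PMBSF pool 1 left out, Dcn and Ogn were called along with Adgrl2.

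No member of the list of Wnt, Bmp, activin, Shh, Notch and retinoic acid genes was called by edgeR, and DESeq2 called 3, all lower. Aldh1a2, which makes retinoic acid and is itself on the meningeal list, had 0.60, 0.58, 0.07 and 0.16 CPM in embWPC ALBSF and 0.92, 3.96, 2.41 and 1.13 CPM in Ctrl PMBSF. The treated pools were all lower, at -2.59 ± 0.59 with an edgeR adjusted p of 0.25. Aldh1a1, a related enzyme, had a difference of -2.30 ± 0.54. The whole list had 5 higher and 14 lower of 76 at an unadjusted p under 0.05 and a median of -0.05. Among all genes these shares were 4.15% and 5.26%. With the meningeal level of each library as a covariate, the difference of Adgrl2, which is not on the meningeal list, was 0.86 with an edgeR adjusted p of 0.0189. The SE of this value was 0.12. Since the meningeal level does not overlap between the 2 groups, the adjusted difference is an extrapolation. The parts of meningeal RNA and of the group therefore cannot be told apart, for Adgrl2 as for other genes.

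**Figure D4:**
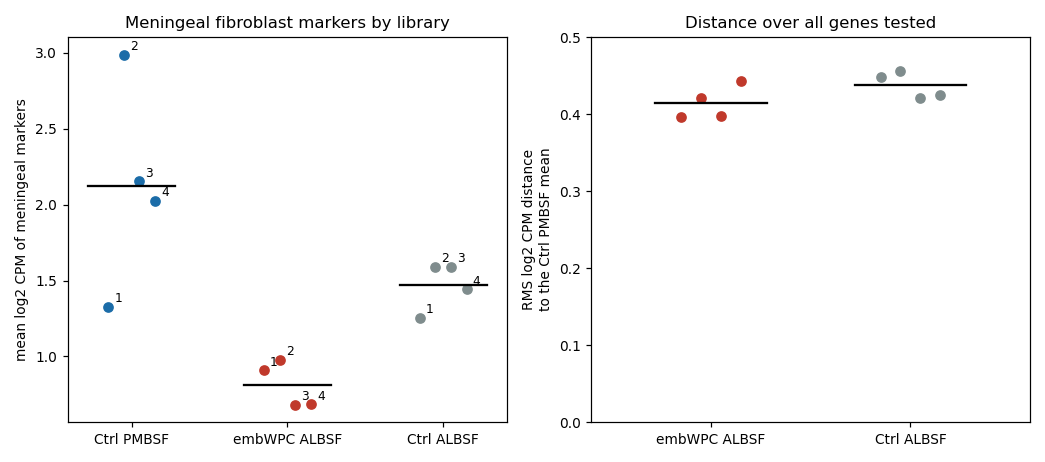
The left panel shows the mean log2 CPM of the 23 tested meningeal fibroblast markers in each library, with the pool number beside each point and the group mean as a line. There, embWPC ALBSF (0.68 to 0.98) lies below both Ctrl PMBSF (1.33 to 2.99) and Ctrl ALBSF (1.25 to 1.59). The right panel shows the root mean square log2 CPM distance of each ALBSF library to the Ctrl PMBSF mean, where the 2 groups overlap.

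Other cell types gave smaller values. For reference, 4.15% of all genes were higher and 5.26% lower at an unadjusted p under 0.05, and 46.6% had values above 0. Endothelial and mural markers were above 0 for 21 of 26 tested, 6 of them at an unadjusted p under 0.05, with a median of 0.21 and summed levels of 324 to 360 CPM in embWPC ALBSF and 256 to 408 in Ctrl PMBSF. Slco1a4, a transporter of brain endothelium, had means of 2.22 and 1.06 CPM. Prethalamic and reticular GABAergic markers were below 0 for all 17 tested, none at an unadjusted p under 0.05, with a median of -0.71 and sums of 25.9 to 69.7 and 31.8 to 83.2 CPM that overlapped. Of 14 oligodendrocyte lineage markers tested, 9 were above 0, 4 of them at an unadjusted p under 0.05 (median 0.15). Olig2, the lineage transcription factor, had means of 57.9 and 41.1 CPM with overlapping groups. Microglia and macrophage markers were below 0 for 13 of 16, 3 of them at an unadjusted p under 0.05 (median -0.26). They summed to 83.4 to 100.4 CPM in embWPC ALBSF and 76.9 to 171 in Ctrl PMBSF. No cell cycle gene of 30 passed the unadjusted threshold, and of 12 genes of the mitochondrial genome 11 had values above 0, with 1 past it (median 0.30). The part of these cell types in the differences above was not tested.

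**Figure D5:**
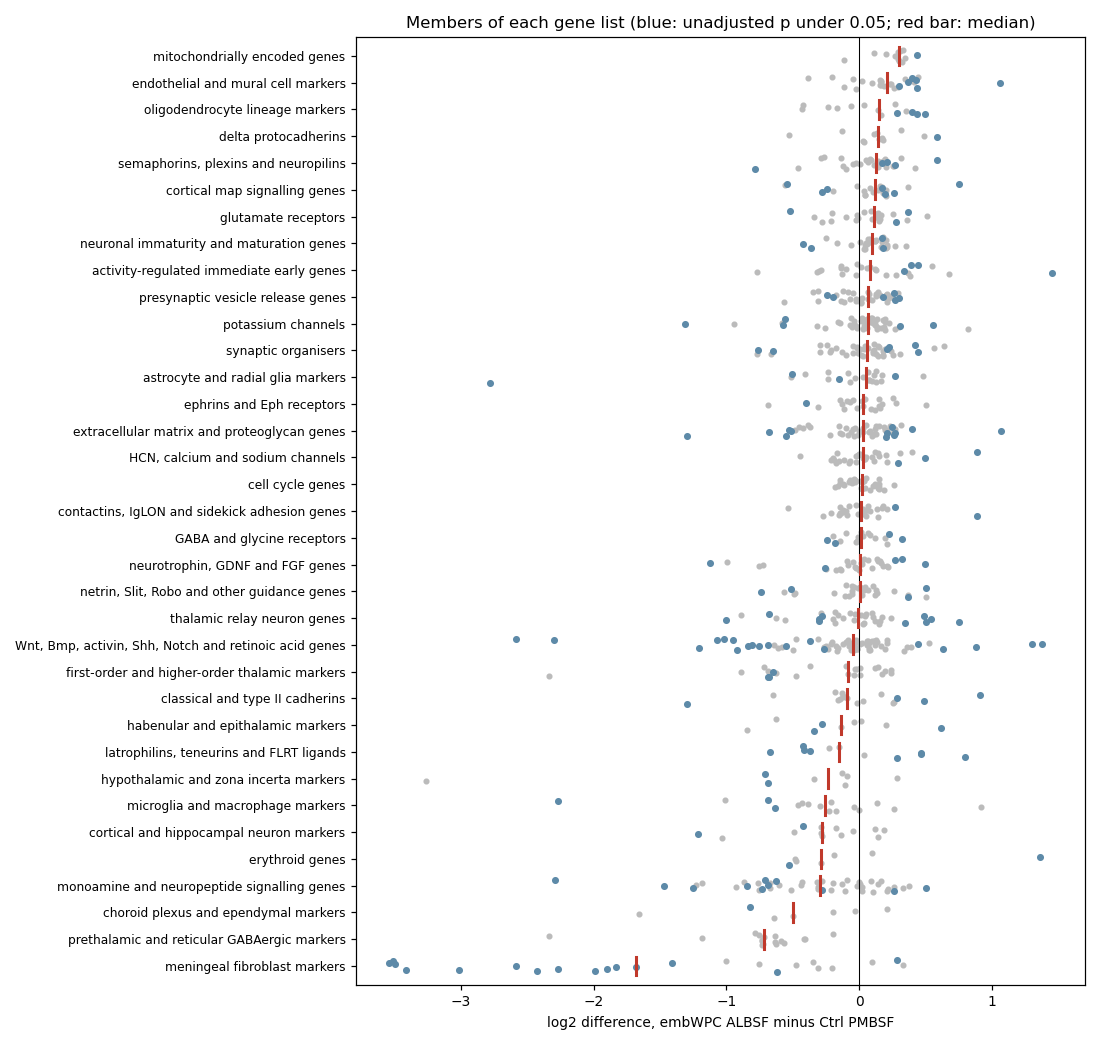
Log2 difference of embWPC ALBSF minus Ctrl PMBSF (x axis) for each tested member of 35 gene lists (y axis), in blue where the unadjusted p was under 0.05, with the list median in red. Meningeal fibroblast markers (median -1.68) lie farthest from 0, and most lists of neuronal genes have medians between -0.16 and 0.14.

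Over all 17501 genes, the root mean square distance of a library to the Ctrl PMBSF mean was 0.397, 0.422, 0.398 and 0.443 log2 CPM for embWPC ALBSF pools 1 to 4. For Ctrl ALBSF it was 0.448, 0.456, 0.421 and 0.425. The means were 0.415 ± 0.022 and 0.437 ± 0.0171 (SD, n = 4 each), and the groups overlapped. The difference of -0.0227 had a two-sided exact permutation p of 0.143 over 70 assignments, where the smallest possible p was 0.0286. Whether Ctrl ALBSF and Ctrl PMBSF pools are pairs was not tested, and this permutation takes no pairing into account. Over the 2000 genes of highest level the sign of this difference turned, to 0.0281 with an exact permutation p of 0.857. Pairs of libraries from embWPC ALBSF and Ctrl PMBSF were 0.518 apart on average, against 0.496 within embWPC ALBSF and 0.51 within Ctrl PMBSF, so most of the distance was also present between pools of 1 group.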

How the data were processed

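The 12 libraries are poly-A RNA, sequenced as 150-nucleotide read pairs. The deposited values are raw counts per Ensembl gene, which the authors made with STAR 2.7.9a on GRCm39 and featureCounts of Subread 2.0.1, after FastQC 0.11.9 and with SAMtools 1.15, per the submitters' processing notes and series text, which also list mm10 and DESeq2 1.32. Settings for strand and for multiply aligned reads are not given in the sources used here, so counts of overlapping and near-identical genes are uncertain.

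Of 55359 genes, 54749 matched GENCODE mouse release 39, which gave symbols and positions and held 99.98381% of counts. All 12 libraries entered 1 edgeR 4.0.16 quasi-likelihood fit (R 4.3.3; robust, TMM scaling, group as the only term, unpaired). The count filter filterByExpr (minimum count 10) left 17501 genes. P-values took a Benjamini-Hochberg adjustment over these genes, and a gene was called under 0.05. Log2 CPM used a prior count of 2. The biological coefficient of variation was 15.8%. No 2 libraries agreed within sampling noise (lowest chi-square per degree of freedom 12.6). Library totals of 28457046 to 34512840 counts limit precision for genes near 1 CPM. DESeq2 1.42.0 and limma 3.58.1 (voom with quality weights) were alternatives. The groups share replicate numbers, but same-numbered pools of embWPC ALBSF and Ctrl PMBSF had deviations that correlated at -0.10 to 0.05, so the numbers were not taken as pairs.

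Named genes were called genes with a mean of at least 1 CPM and no overlap, the 4 smallest-p members of each of 21 lists, 11 genes earlier called between the lip territories and check genes, with relatives of a named gene. Dlk1, Inhba, Pnlip, Thra, Ebf1, Bambi and Angpt2 are outside this rule and were chosen after values were seen. Results of 2 genes that the rule takes are not reported here. The comparison, the 35 lists and the rule were chosen with earlier results of these data known.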

Additional observations from a re-analysis of the deposited data

Results flagged for a closer look

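In groups of 4 libraries, a single library can stand apart from the other 3 when its gap to the nearest one takes up most of the whole range (Dixon's 95% critical value), which chance gives in about 1 of 20 groups. Among 236 groups of named genes, library totals, mitochondrial shares and meningeal levels, this held for 17 (7.203%), all of them named genes. In embWPC ALBSF pool 3, Adgrl2 was low at 102.8 CPM (the others 117 to 118), Islr was high at 0.827 CPM (0.629 to 0.646) and Sox14 was high at 0.728 CPM (0.288 to 0.335). In embWPC ALBSF pool 2, Cdh6 was low at 148 CPM (175 to 179), Efnb1 low at 4.65 CPM (6.94 to 7.31), Sema4c high at 21.1 CPM (16.9 to 17.5) and Gbx2 high at 14.9 CPM (1.86 to 3.31). In embWPC ALBSF pool 1, Bambi was low at 14.5 CPM (15.8 to 16.0) and Pcdh10 low at 21.8 CPM (24.6 to 24.8).

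In Ctrl PMBSF pool 1, Ano3 was low at 0.297 CPM (0.644 to 0.691), Cdh10 high at 13.3 CPM (8.98 to 9.36) and Sp9, a transcription factor of the ventral forebrain, high at 21.3 CPM (0.628 to 3.50). In pool 2 of that group, Gbx2 was low at 2.88 CPM (6.94 to 7.70) and Ttr, the choroid plexus transthyretin, high at 21.97 CPM (2.49 to 3.42). In pool 3, Cntn3 was high at 2.80 CPM (1.16 to 1.32) and Tenm3 high at 43.0 CPM (36.9 to 38.0). In pool 4, Sst was low at 2.17 CPM (5.62 to 6.24).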

How the results depend on the processing

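Adgrl2 was called under 22 of 23 alternatives, with differences of 0.78 to 0.86 (0.78 to 0.84 with single libraries of the contrast left out). The exception was a replicate block on the 8 libraries, at 0.80 and an edgeR adjusted p of 0.0513. No embWPC ALBSF pool correlated best with the Ctrl PMBSF pool of its own number, so the numbers were not taken as pairs. Correlations over so few pools cannot exclude pairs, and the numbering of Ctrl ALBSF was not tested. For embWPC ALBSF minus Ctrl PMBSF, the count of 1 became 74 with DESeq2 (34 higher, 40 lower), 33 with no count filter (18 and 15), 23 with the meningeal covariate (15 and 8), and 3 with the block on 12 libraries (Adgrl2, Ethe1, Rorb). It became 0 with the block on 8 libraries (edgeR, 1461 genes at an unadjusted p under 0.05, while DESeq2 without a block called 74). It ranged from 1 to 3 with single libraries left out. It was 3 without Ctrl PMBSF pool 1 (Adgrl2, Dcn, Ogn) and, among alternatives chosen after seeing the data, 2 without Ctrl ALBSF pool 1 (Adgrl2, Rorb) and 2 without Ctrl PMBSF pools 2 and 3 (Adgrl2, Mt3). The 291 genes between the control territories became 527 with DESeq2, 443 with limma-voom, 346 with the block, 98 without pools 2 and 3, and 128 to 294 with single libraries left out (128 without Ctrl ALBSF pool 3, and 164 each without its pools 2 and 4 and without Ctrl PMBSF pool 2). The 13 between the lip territories became 181 with DESeq2, 75 with limma-voom, 74 with no filter, 1 with a mean of at least 1 CPM, 31 with the replicate block, 27 with the covariate, 26 without pools 2 and 3, and 1 to 58 with single libraries left out (58 without Ctrl PMBSF pool 1, 1 without embWPC ALBSF pool 3). The distance difference turned to 0.0281 with the 2000 most abundant genes. Why these values moved was not tested.

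Of 2538 differences of 111 named genes over 23 settings, 2479 kept their direction and side of the threshold, 41 gained a call, 1 lost it and 17 changed sign. With the covariate, the sign changed for Cdh10 (-0.12), Col3a1 (0.20), Dcn (0.25), Epha4 (-0.057), Ephb6 (-0.27), Flrt2 (0.12), Grm4 (-0.0151), Islr (0.024) and Slit3 (0.029); Col3a1, Dcn and Islr are themselves part of the covariate. Without pools 2 and 3 it changed for Gad2 (0.027) and Pcdh15 (0.034). With single libraries left out, Adgrl3 ranged from -0.069 to 0.13, Gbx2 from -1.40 to 0.13, Rora from -0.0304 to 0.097 and Slc17a6 from -0.0227 to 0.072.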

Other observations

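The gene groups in this paragraph held no gene called by edgeR in embWPC ALBSF minus Ctrl PMBSF (DESeq2 called 1, among the cortical map genes). Their medians were close to that of all genes. At an unadjusted p under 0.05, where 4.15% of all genes were higher and 5.26% lower, activity-regulated immediate early genes had 4 higher and 0 lower of 25 (median 0.08). Signalling genes of cortical map formation had 4 higher and 3 lower of 22 (median 0.12). Neuronal immaturity and maturation genes had 2 higher and 2 lower of 29 (median 0.09), and 24 of the 29 had values above 0. GABA and glycine receptors had 2 higher and 2 lower of 17 (median 0.01), and neurotrophin, GDNF and FGF genes 3 higher and 2 lower of 30 (median 0.01). Extracellular matrix and proteoglycan genes had 7 higher and 5 lower of 47 (median 0.03). Among these, Sulf1, a sulfatase that trims heparan sulfate, had means of 5.83 CPM in embWPC ALBSF and 2.78 in Ctrl PMBSF with overlapping groups. Gpc5, a glypican, had means of 5.42 and 7.95 CPM.

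The counts of higher and lower values for the following cell types are also at an unadjusted p under 0.05. Of other cell types, astrocyte and radial glia markers had 1 higher and 3 lower of 22 (median 0.05), and erythroid genes 1 higher and 1 lower of 7 (median -0.29). Habenular markers had 1 higher and 2 lower of 9 (median -0.14), and DESeq2 called 1 of them, as higher. Cortical and hippocampal neuron markers had 0 higher and 2 lower of 13 (median -0.28). Hypothalamic and zona incerta markers had 0 higher and 2 lower of 8 (median -0.23). Their summed level did not overlap, at 39.1 to 91.8 CPM in embWPC ALBSF and 104 to 140 in Ctrl PMBSF. In Ctrl ALBSF this sum was 48.6 to 63.2 CPM. The mean log2 CPM of the tested members overlapped, at -0.65 to 0.08 in embWPC ALBSF and -0.36 to 0.54 in Ctrl PMBSF. Choroid plexus markers had 0 higher and 1 lower of 7 (median -0.50). Pnlip, pancreatic lipase, had means of 1.2 and 0.436 CPM without overlap. The 23 genes called with the meningeal covariate included the basement membrane genes Col4a1, Col4a2 and Nid2 and the mitochondrial genes mt-Co1 and mt-Nd5.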
